A study of Mus musculus with 5 samples.

Results

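Cholesterol synthesis genes and the genes of their SREBP control were examined in cultured peritoneal macrophages of mice with c-Jun deleted and of wild-type mice. A set of 27 genes was taken by name: the enzymes that build cholesterol from acetyl-CoA, the SREBP factors with their escort and anchors, and 2 genes for sterol transport and esterification. All 27 had at least 1 probe on the array, with 39 probes in all, and each gene was read from its brightest probe. Of these, 26 entered the comparison, among 27929 genes tested on the whole array, of which 14630 carry a symbol. Hmgcs1 stayed out because its brightest probe had an outlier flag on 1 array, and its values are given without a test.

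The c-Jun-deleted mice, numbered 1 and 9, carried 2 floxed c-Jun alleles and 1 copy of LysM-Cre, a recombinase driven from the Lyz2 locus in myeloid cells. The 3 wild-type mice, numbered 5, 11 and 14, were littermates, and the alleles they carried are not spelled out in the labels. All were 8 weeks old, of either sex and on a mixed 129/C57Bl6 background. Lavaged peritoneal cells were plated overnight and those that stuck to the dish gave the RNA, so floating cells were removed but no sort was made. The titles and genotypes name LysM-Cre, whereas the source names of the c-Jun-deleted samples give Mx.

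Values below are log2 levels, the log2 of an array's processed signal over that array's 75th percentile, so a level of 0 is that percentile. Jun itself stood at 2.76 and 2.71 on c-Jun-deleted arrays 1 and 9, against 3.21, 3.75 and 3.17 on wild-type arrays 5, 11 and 14. The position of the Jun probe against the floxed segment is unknown, and its level therefore does not check the deletion. Lyz2 was at 4.46 and 8.52 on the c-Jun-deleted arrays and between 8.70 and 9.18 on the wild-type arrays. General macrophage markers were strong on every array, with summed linear levels of 951 to 1087 for c-Jun-deleted and 1229 to 1655 for wild-type, in multiples of the 75th percentile. These sums include Lyz2, the locus that carries the Cre, so their gap between genotypes is not a measure of macrophage content. Of the 7 markers tested, 3 were higher and 4 lower on the c-Jun-deleted arrays. Wild-type 11 stood apart in several ways: Xist was at -4.53 there and between -0.037 and 0.74 on the other 4 arrays, and the Y-linked gene Ddx3y was at 1.35 there and between -7.72 and -6.47 elsewhere. Of 10 markers of resident (large peritoneal) macrophages, 6 were lowest on wild-type 11, among them Gata6 (-1.07), Timd4 (1.47) and Ltbp1 (0.16). Icam2, Itga6, Cd93 and Bhlhe41 were lowest on wild-type 14. Gata6 was at 1.48 and 2.08 on c-Jun-deleted 1 and 9, against 1.81 and 1.29 on wild-type 5 and 14, and Timd4 and Ltbp1 were at 3.05 or above on each of these 4 arrays. Slide 1 held c-Jun-deleted 1 and wild-type 5, and slide 2 held c-Jun-deleted 9, wild-type 11 and wild-type 14.

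Cholesterol is made in a long chain of steps that pass through mevalonate, the isoprenoid diphosphates, squalene and lanosterol, mostly at the endoplasmic reticulum. Most genes of the chain are targets of SREBP-2, a membrane-bound transcription factor that Scap escorts to the Golgi for cleavage when sterols are low and that Insig proteins hold back when sterols are high. In macrophages this supply is balanced against cholesterol taken up with engulfed cells and lipoproteins, which is esterified by Soat1 or exported under control of LXR.

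The promoter windows of 4 members are printed to show the letters found for 2 factors known to act on this pathway, SREBP-2 and its partner NF-Y, and for AP-1; the sterol regulatory element is in that of Hmgcs1 only. The letters come from RefSeq, assembly GRCm38.p6, read along the strand of the gene from 250 bases before to 50 bases after its start. Both strands were searched for the sterol regulatory element TCACNCCAC, the NF-Y box CCAAT, the E-box form TCACGTGA and the AP-1 site TGANTCA, and matches are in capitals. A match on the other strand appears as the reverse complement, for example ATTGG. Hmgcs1 lies at chr13:119690101-119690400 on the plus strand and holds a sterol regulatory element and 4 CCAAT boxes. Idi1 lies at chr13:8885356-8885655 on the plus strand, Hsd17b7 at chr1:169969156-169969455 on the minus strand and Dhcr7 at chr7:143829964-143830263 on the plus strand. For Dhcr7 the table lists other starts, and the window with matches is shown.
Hmgcs1: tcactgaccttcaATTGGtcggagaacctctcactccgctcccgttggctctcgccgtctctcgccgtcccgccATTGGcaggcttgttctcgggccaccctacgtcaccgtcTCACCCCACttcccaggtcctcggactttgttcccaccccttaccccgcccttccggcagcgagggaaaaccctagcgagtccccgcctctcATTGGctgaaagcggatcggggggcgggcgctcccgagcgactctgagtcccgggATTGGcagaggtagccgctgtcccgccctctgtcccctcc
Idi1: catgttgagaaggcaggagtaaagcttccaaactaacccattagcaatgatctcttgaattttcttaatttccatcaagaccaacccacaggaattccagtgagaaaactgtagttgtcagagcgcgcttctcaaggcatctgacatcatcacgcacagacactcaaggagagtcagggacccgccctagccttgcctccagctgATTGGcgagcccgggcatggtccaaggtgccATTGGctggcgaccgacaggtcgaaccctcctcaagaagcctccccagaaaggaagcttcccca
Hsd17b7: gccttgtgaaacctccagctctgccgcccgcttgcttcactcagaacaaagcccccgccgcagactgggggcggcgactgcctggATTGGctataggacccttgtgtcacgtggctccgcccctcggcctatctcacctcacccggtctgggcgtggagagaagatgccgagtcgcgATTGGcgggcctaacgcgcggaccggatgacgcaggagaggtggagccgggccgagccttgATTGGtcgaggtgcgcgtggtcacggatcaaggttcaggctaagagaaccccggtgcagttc
Dhcr7: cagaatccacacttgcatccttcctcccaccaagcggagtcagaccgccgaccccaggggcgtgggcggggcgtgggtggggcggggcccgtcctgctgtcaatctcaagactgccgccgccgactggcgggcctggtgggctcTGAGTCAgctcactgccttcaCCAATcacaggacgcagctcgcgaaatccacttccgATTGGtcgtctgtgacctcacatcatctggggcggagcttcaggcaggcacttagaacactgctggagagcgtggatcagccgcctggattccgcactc

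A window was found for 23 of the 27 members, with 31 windows in all, and Fdps, Fdft1, Sqle and Stard4 had none in the table. A CCAAT box was in a window of 21 of these 23 members, and in one of 41.1% of all 27025 genes with a window. The 2 members without it were Acat2 and Scap. The sterol regulatory element was found for Hmgcs1 alone, with its first base at position -137 from the start, and for 1.44% of all genes. The E-box form was in 0 of the 23 members and 1.12% of all genes. AP-1 sites were in windows of Dhcr7, Lbr and Msmo1, 3 of 23 members, against 8.97% of all genes. These are matches of letters and show neither binding nor its absence.

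The comparison the design gives is c-Jun-deleted against wild-type macrophages. In it 0 of the 26 tested members passed limma at an adjusted p below 0.05, with adjusted p from 0.401 to 0.981, and 0% of all 27929 genes did. At an unadjusted p below 0.05 there was 1 member, Scap, against 12.1% of all genes. Both c-Jun-deleted arrays lay above the whole wild-type range for 3 members, Scap, Lbr and Dhcr7, and 13.3% of all genes did so. Both lay below it for 1 member, Insig2, against 20.2% of all genes. The other 22 members overlapped. The intervals of all tested members but Scap covered 0, those of Lbr, Dhcr7 and Insig2 included, and Scap did not pass limma. Neither a change nor its absence was thus shown for any member at this number of arrays. The median difference over the 26 members was 0.16 (18 higher and 8 lower), beside -0.092 over all genes, and it turned to -0.17 (5 higher and 21 lower) when wild-type 11 was left out, beside -0.11. Without wild-type 11, 0 members passed limma and 4 had an unadjusted p below 0.05, Acat2, Pmvk, Insig1 and Ebp, all lower, against 16.1% of all genes. Leaving out that array widened the interval of Scap, which then covered 0, and those of Lbr, Dhcr7, Insig2, Soat1, Srebf1, Srebf2 and Ggps1, and narrowed the others. The median was -0.037 without c-Jun-deleted 1. With the slide as a block it was 0.072, within slide 1 it was 0.003 and within slide 2 it was 0.13. The scaling moved the median of all genes to 0.12 with median centring and to -0.010 with quantile normalization, where the members' medians were 0.37 and 0.23.

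**Figure D1:**
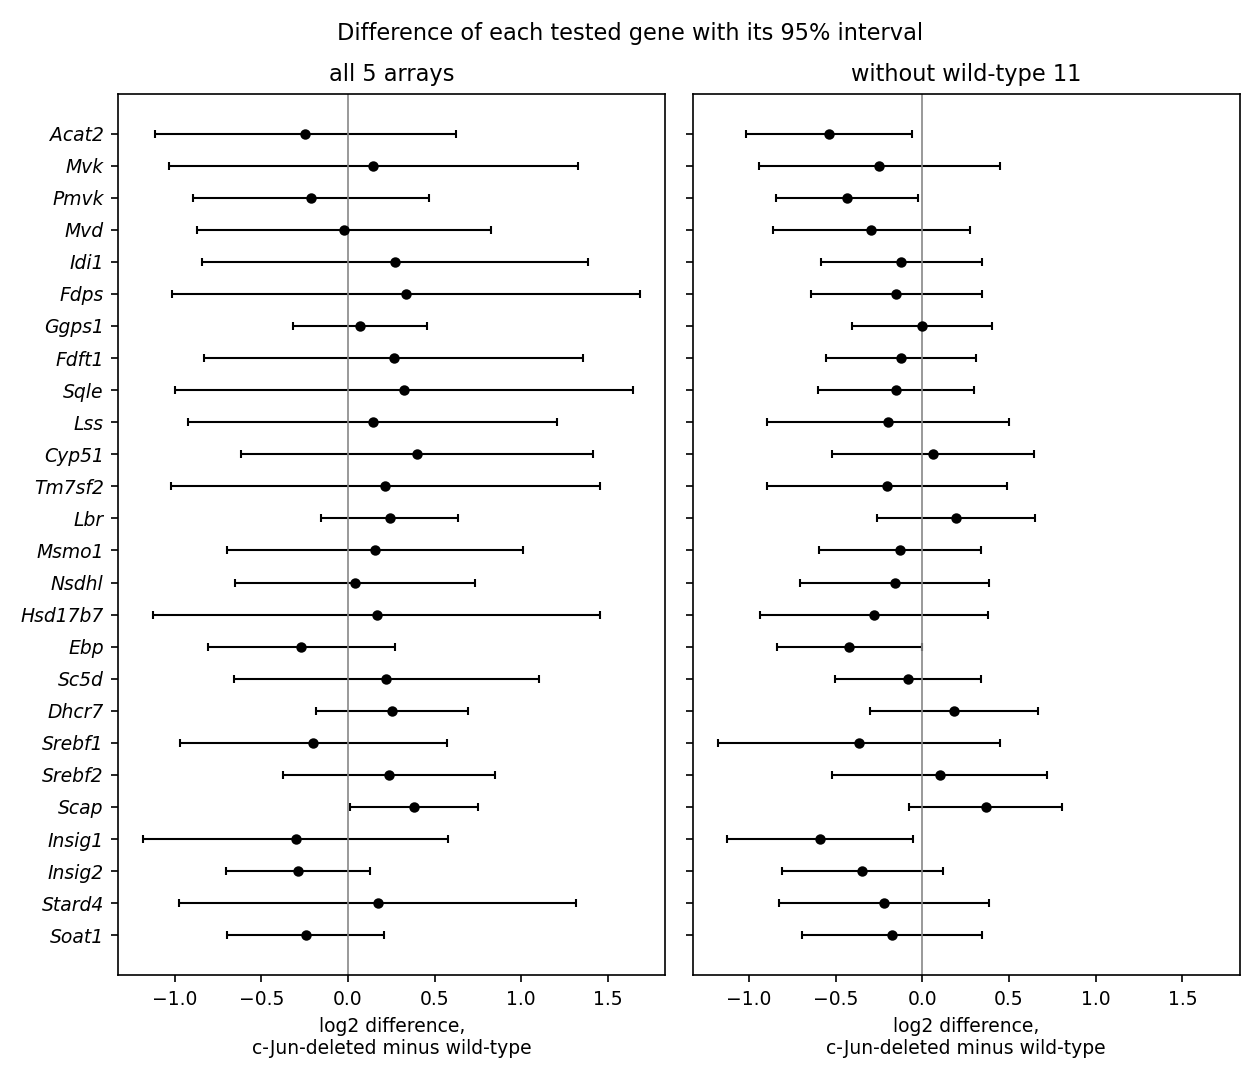
Difference of each of the 26 tested genes in log2, c-Jun-deleted minus wild-type, as points with 95% intervals from the limma fit; the left panel uses all 5 arrays and the right panel leaves out wild-type 11. On the left the interval of Scap alone lies above 0, and on the right most points move to the left and the median SE is 0.17, against 0.33 on the left.

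The steps up to farnesyl diphosphate begin with Acat2, the cytosolic thiolase, and Hmgcs1, the synthase of the step before mevalonate. Acat2 was at -1.69 and -1.51 on c-Jun-deleted 1 and 9 and at -1.15, -1.94 and -0.97 on wild-type 5, 11 and 14. Wild-type 11 was the lowest of the 5 arrays, and the c-Jun-deleted arrays lay between it and the other wild-type ones. The difference was -0.25 (SE 0.33), with a limma adjusted p of 0.777, and -0.54 (95% interval -1.02 to -0.059) without wild-type 11. Hmgcs1 was at 4.40 and 4.10 on the c-Jun-deleted arrays and at 4.43, 3.58 and 3.46 on the wild-type arrays, where the last value, of wild-type 14, comes from the spot with the outlier flag. With that spot kept the difference was 0.43 (SE 0.35), and without that array 0.25. A second, dim Hmgcs1 probe was well above background on c-Jun-deleted 1 only, so no fold is given for it. It is the one member probe in the authors' deposited table of group values, which puts it at -0.087 for c-Jun-deleted and -1.17 for wild-type, on a scale whose baseline is unknown.

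Mevalonate is then phosphorylated by Mvk and Pmvk and decarboxylated by Mvd. Mvk was at 4.18 and 3.69 on c-Jun-deleted 1 and 9, against 4.32, 3.00 and 4.05 on wild-type 5, 11 and 14. Pmvk was at 3.66 and 3.74 on the c-Jun-deleted arrays and at 4.11, 3.47 and 4.17 on the wild-type arrays. Mvd was at 2.42 and 2.07 on the c-Jun-deleted arrays and at 2.45, 1.73 and 2.63 on the wild-type arrays. All 3 kinase and decarboxylase genes were lowest on wild-type 11, and their groups overlapped. The difference of Pmvk, the member with the smallest p of these steps, was -0.21 (SE 0.26), with a limma adjusted p of 0.752, and -0.43 (95% interval -0.85 to -0.024) without wild-type 11. For Mvk it was 0.15 with and -0.25 without wild-type 11, and for Mvd -0.024 and -0.29. Second probes of Mvk and Pmvk were also lowest on wild-type 11.

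Idi1 makes the 2 isoprene building blocks interchangeable, Fdps joins them to farnesyl diphosphate, and Ggps1 extends that to the geranylgeranyl diphosphate used to anchor proteins in membranes. Idi1 was at 3.70 and 3.49 on c-Jun-deleted 1 and 9 and at 3.78, 2.53 and 3.66 on wild-type 5, 11 and 14. Fdps was at 5.01 and 4.74 on the c-Jun-deleted arrays and at 4.97, 3.57 and 5.09 on the wild-type arrays. The other 4 arrays lay within 0.29 of each other for Idi1 and within 0.34 for Fdps, and wild-type 11 lay 0.96 and 1.18 below the lowest of them. Ggps1 varied little, at 2.10 and 2.09 on the c-Jun-deleted arrays and 2.07, 1.89 and 2.13 on the wild-type arrays. The differences were 0.27 (SE 0.43) for Idi1, 0.34 (SE 0.52) for Fdps and 0.068 (SE 0.15) for Ggps1. For Fdps the limma adjusted p was 0.809. Without wild-type 11 they were -0.12, -0.15 and -0.003. A second, dimmer Ggps1 probe gave a difference of 0.275 and was not lowest on wild-type 11.

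The squalene stage holds Fdft1, the squalene synthase that commits farnesyl diphosphate to sterols, Sqle, the squalene epoxidase, and Lss, which closes the rings to lanosterol. Fdft1 was at 2.27 and 2.12 on c-Jun-deleted 1 and 9, against 2.30, 1.15 and 2.35 on wild-type 5, 11 and 14. Sqle was at 3.69 and 3.53 on the c-Jun-deleted arrays and at 3.70, 2.33 and 3.83 on the wild-type arrays. Lss was at 0.80 and 0.24 on the c-Jun-deleted arrays and at 0.67, -0.31 and 0.78 on the wild-type arrays. Each of the 3 was lowest on wild-type 11, below the next array by 0.96, 1.20 and 0.55 in the same order. For Lss, c-Jun-deleted 9 lay between wild-type 11 and the other arrays. The differences were 0.26 (SE 0.42) for Fdft1, 0.32 (SE 0.51) for Sqle and 0.14 (SE 0.41) for Lss, with limma adjusted p of 0.815, 0.812 and 0.904. Without wild-type 11 they turned to -0.13, -0.16 and -0.20. A dimmer Fdft1 probe was lowest on wild-type 11 too, with a smaller gap: it was at -2.54 and -2.83 on the c-Jun-deleted arrays and at -2.54, -2.88 and -2.54 on the wild-type arrays.

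**Figure D2:**
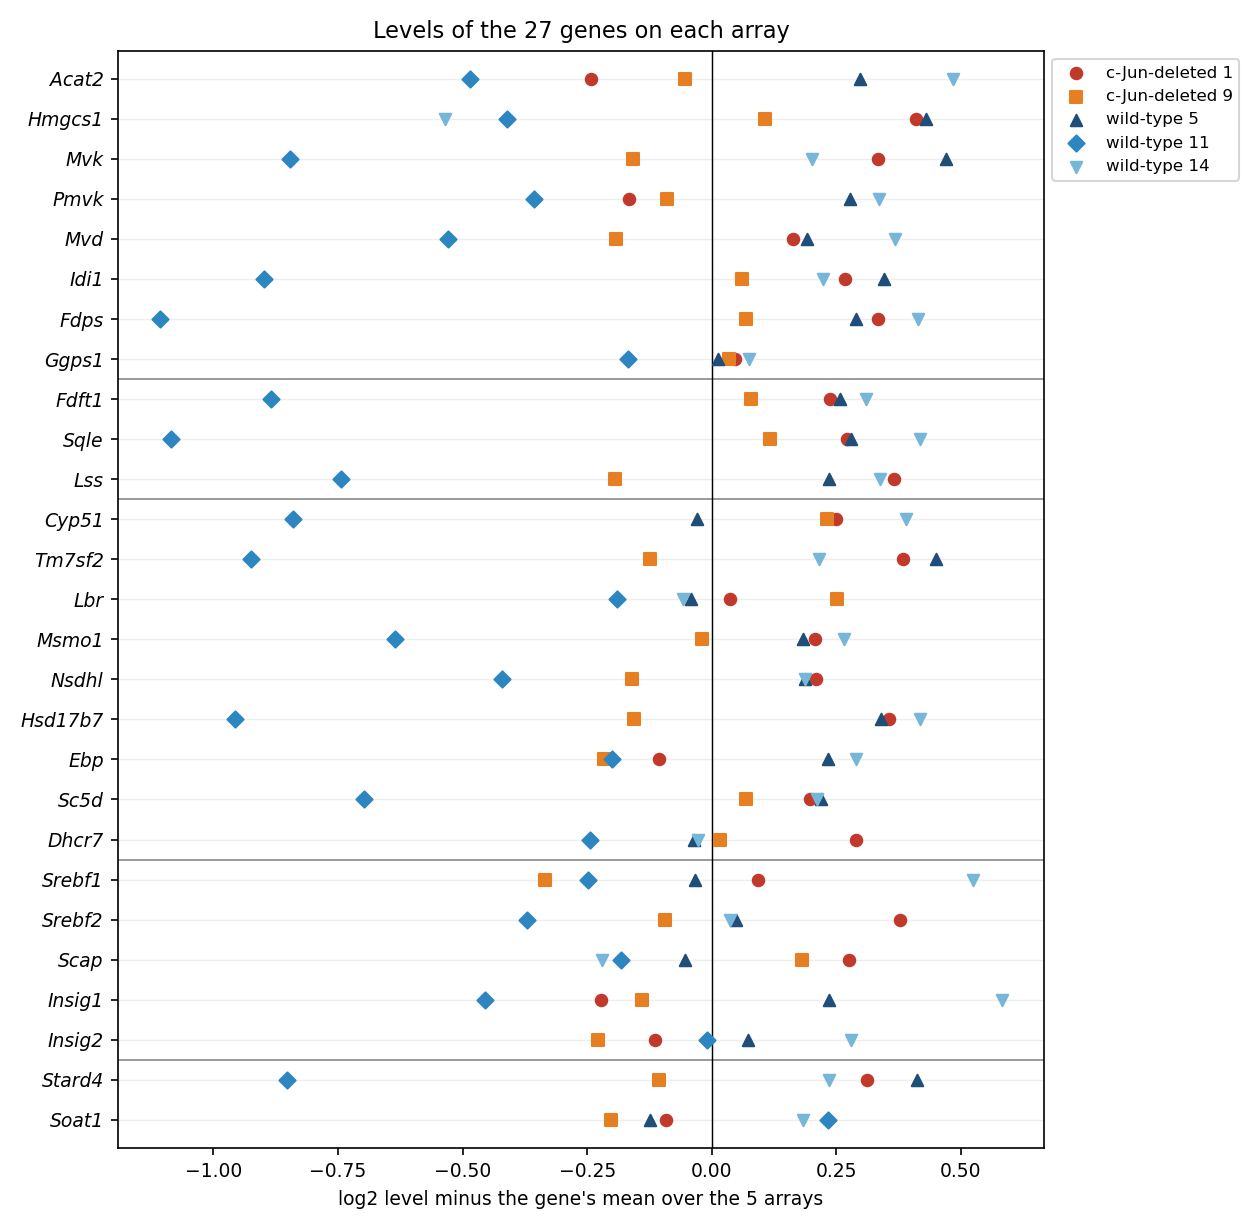
Log2 level of each of the 27 genes on each array, minus the mean of the gene over the 5 arrays; red and orange points are c-Jun-deleted 1 and 9, blue points are wild-type 5, 11 and 14, and lines separate the steps from mevalonate synthesis (top) to sterol transport (bottom). Wild-type 11, the blue diamond, lies alone at the left for Fdps, Sqle, Hsd17b7, Tm7sf2, Idi1 and Fdft1, and near the other arrays for Ggps1, Lbr, Scap and Insig2.

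From lanosterol on, Cyp51 removes a methyl group, Tm7sf2 and Lbr reduce the bond it leaves, and Msmo1, Nsdhl and Hsd17b7 take off the remaining methyl carbons. Cyp51 was at 0.63 and 0.61 on c-Jun-deleted 1 and 9 and at 0.35, -0.46 and 0.77 on wild-type 5, 11 and 14. Hsd17b7 was at 0.31 and -0.21 on the c-Jun-deleted arrays and at 0.29, -1.01 and 0.37 on the wild-type arrays. Msmo1 was at 5.31 and 5.08 on the c-Jun-deleted arrays and at 5.29, 4.47 and 5.37 on the wild-type arrays. The groups overlapped for all 3, with wild-type 11 lowest. Tm7sf2 was at 2.26 and 1.76 on the c-Jun-deleted arrays and at 2.33, 0.96 and 2.10 on the wild-type arrays. Nsdhl, an X-linked gene, was at 0.46 and 0.09 on the c-Jun-deleted arrays and at 0.44, -0.17 and 0.44 on the wild-type arrays. Both were again lowest on wild-type 11, and so were the second probes of Tm7sf2, Nsdhl and Hsd17b7. Differences of these 5 genes ranged from 0.041 for Nsdhl to 0.40 (SE 0.39) for Cyp51, and without wild-type 11 from -0.28 for Hsd17b7 to 0.060 for Cyp51.

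Lbr, the lamin B receptor of the nuclear envelope that is also a sterol reductase, was lowest on wild-type 11 too, but by 0.13 below the next array. It was at 2.62 and 2.83 on c-Jun-deleted 1 and 9, against 2.54, 2.39 and 2.52 on wild-type 5, 11 and 14. Both c-Jun-deleted arrays lay above every wild-type array, by a small gap. The difference was 0.24 (SE 0.15), a 1.18-fold higher signal, with a limma adjusted p of 0.546, and it was 0.19 without wild-type 11, 0.078 within slide 1 and 0.38 within slide 2. A second, dimmer Lbr probe gave a difference of -0.026 with overlapping groups. Markers of B cells were higher on the c-Jun-deleted arrays, where their summed linear level was 347 to 504, against 53.5 to 103 on the wild-type arrays. All 13 measured markers lay above the wild-type range on both, against 13.3% of all genes. Erythroid markers, of which 5 of 6 tested lay above that range, all globins, summed to 10.7 and 23.0 on the c-Jun-deleted arrays and to 0.6 to 1.5 on the wild-type arrays. The part of such cells in the Lbr and other values was not tested, and in RNA of mixed cells a change in the number of cells of a type and a change in RNA per cell cannot be told apart.

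The last steps use Ebp, a sterol isomerase, Sc5d, a desaturase, and Dhcr7, the reductase that yields cholesterol. Ebp, an X-linked gene, was at 5.21 and 5.10 on c-Jun-deleted 1 and 9 and at 5.55, 5.12 and 5.60 on wild-type 5, 11 and 14. Sc5d was at 2.76 and 2.63 on the c-Jun-deleted arrays and at 2.78, 1.87 and 2.78 on the wild-type arrays. Dhcr7 was at 0.10 and -0.17 on the c-Jun-deleted arrays and at -0.23, -0.44 and -0.22 on the wild-type arrays. Wild-type 11 was the lowest array for Sc5d and Dhcr7, c-Jun-deleted 9 was lowest for Ebp, and only Dhcr7 had groups that did not overlap. The difference of Dhcr7 was 0.26 (SE 0.17), with a limma adjusted p of 0.560, and 0.18 without wild-type 11. It was 0.32 within slide 1 and 0.15 within slide 2. Ebp had a difference of -0.27 (SE 0.21), with a limma adjusted p of 0.610, and -0.42 (95% interval -0.84 to -0.004) without wild-type 11. Sc5d was at 0.22 with all arrays and -0.082 without wild-type 11.

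Among the control genes, Srebf1 encodes the SREBP that acts mainly on fatty acid synthesis and Srebf2 the one that acts mainly on cholesterol synthesis. Srebf2 was at 2.54 and 2.07 on c-Jun-deleted 1 and 9 and at 2.21, 1.79 and 2.20 on wild-type 5, 11 and 14. Its groups overlapped, with a difference of 0.24 (SE 0.24), a limma adjusted p of 0.691 and 0.10 without wild-type 11. Srebf1 was at -0.99 and -1.41 on the c-Jun-deleted arrays and at -1.11, -1.33 and -0.56 on the wild-type arrays, and its difference was -0.20 (SE 0.30). Neither probe tells the full-length protein from its cleaved, active form, which arrays do not measure.

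Scap, the sterol-sensing escort of both SREBPs, was at 3.18 and 3.09 on c-Jun-deleted 1 and 9, against 2.85, 2.72 and 2.69 on wild-type 5, 11 and 14. Both c-Jun-deleted arrays lay above every wild-type array, and wild-type 11 was inside the wild-type range. The difference was 0.38 (SE 0.14, 95% interval 0.012 to 0.75), a 1.30-fold higher signal. It had an unadjusted p of 0.0453 and a limma adjusted p of 0.401, so it did not pass. It was 0.37 (95% interval -0.078 to 0.81) without wild-type 11, 0.33 within slide 1 and 0.38 within slide 2.

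Insig1 and Insig2 encode the anchors that keep Scap in the endoplasmic reticulum, and Insig1 is itself an SREBP target. Insig2 was at 1.82 and 1.71 on c-Jun-deleted 1 and 9 and at 2.01, 1.93 and 2.22 on wild-type 5, 11 and 14. Both c-Jun-deleted arrays lay below every wild-type array. The difference of Insig2 was -0.29 (SE 0.16), a 1.22-fold lower signal, with a limma adjusted p of 0.505, and it was -0.35 without wild-type 11, -0.19 within slide 1 and -0.36 within slide 2. Its second probe was at 0.80 and 0.38 on the c-Jun-deleted arrays and at 0.92, 0.53 and 0.69 on the wild-type arrays, which overlap. Insig1 was at 0.27 and 0.36 on the c-Jun-deleted arrays and at 0.73, 0.04 and 1.08 on the wild-type arrays, so the c-Jun-deleted arrays were closer to each other than the wild-type arrays were. Its difference was -0.30 (SE 0.34), and -0.59 (95% interval -1.13 to -0.052) without wild-type 11.

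Stard4, a soluble cholesterol carrier and SREBP target, was at 2.47 and 2.05 on c-Jun-deleted 1 and 9, against 2.57, 1.31 and 2.40 on wild-type 5, 11 and 14. Soat1, which esterifies cholesterol for storage in droplets, was at 0.66 and 0.55 on the c-Jun-deleted arrays and at 0.62, 0.98 and 0.93 on the wild-type arrays. The genes differed on wild-type 11, where Stard4 was lowest and Soat1 highest of the 5 arrays. The Soat1 difference was -0.24 (SE 0.18) with a limma adjusted p of 0.586, and the Stard4 difference was 0.17 (SE 0.44) with a limma adjusted p of 0.892. Without wild-type 11 they were -0.18 and -0.22. A second, dimmer Stard4 probe gave a difference of -0.13 with all arrays and was also lowest on wild-type 11.

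Across the whole set, 1 wild-type array stood apart. Wild-type 11 was the lowest of the 5 arrays for 21 of the 26 tested members, and for 21.2% of all genes tested. These 21 comprised all 7 tested genes up to the isoprenoid diphosphates, all 3 of the squalene stage, 8 of 9 from lanosterol on, 2 of 5 control genes and 1 of 2 for transport and esterification. The level on wild-type 11 was at least 2-fold below the mean of the other 4 arrays for 9 members, against 3.76% of all genes. These were Fdps, Sqle, Hsd17b7, Tm7sf2, Idi1, Fdft1, Stard4, Mvk and Cyp51, with log2 differences of -1.38 to -1.05 from that mean, or 2.61-fold to 2.07-fold lower levels. This contrast was chosen after its values were seen and has no test.

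**Figure D3:**
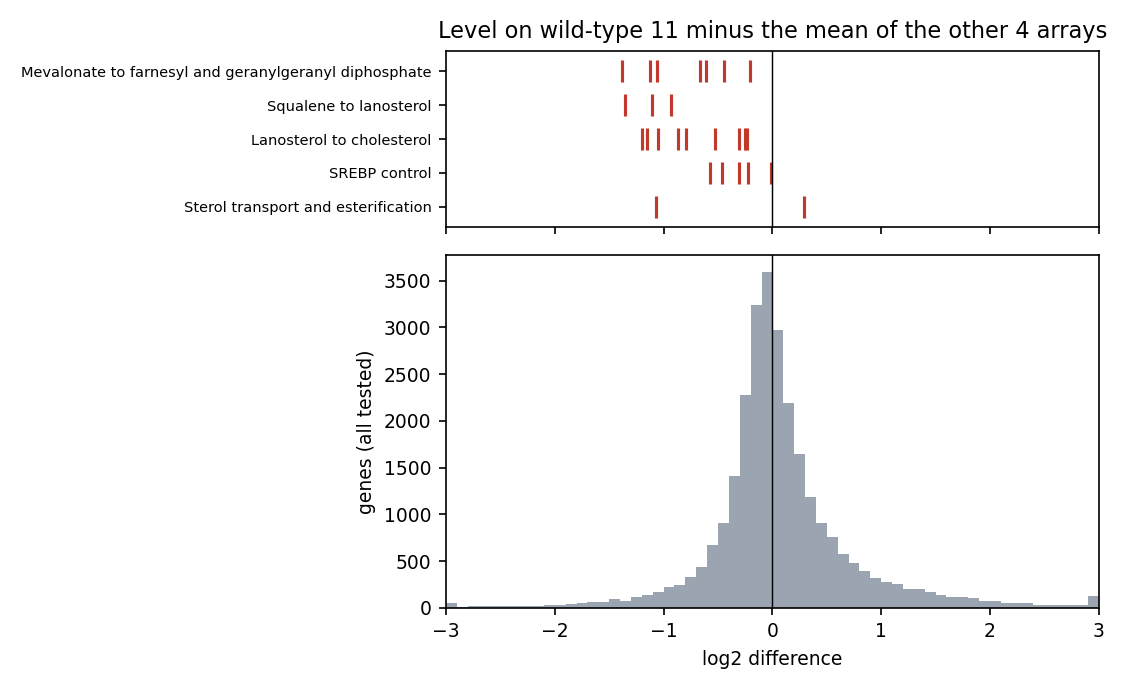
Level on wild-type 11 minus the mean of the other 4 arrays in log2, with each tested member as a tick in a row per step (top) and the number of genes per 0.1 of log2 for all 27929 genes tested (bottom); the end bars also hold genes beyond 3. The members' median is -0.63 and that of all genes is -0.012, and the ticks of the synthesis steps lie at the left of 0.

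The gap on that array was widest at the squalene stage and narrowest for the control genes. The median gap of wild-type 11 to the mean of the other arrays was -0.66 for the 7 genes of the first steps, -1.11 for the squalene stage, -0.80 from lanosterol on and -0.31 for the SREBP control genes. The other 4 arrays, both c-Jun-deleted ones among them, spanned a median range of 0.48 over the members. Between replicates the median SD of the members was 0.15 on the c-Jun-deleted arrays (n = 2) and 0.51 on the wild-type arrays (n = 3), against 0.18 and 0.24 over all genes. A first principal component held 86.1% of the variance of the members, against 44.3% for all genes, and placed wild-type 11 at -3.28, c-Jun-deleted 1 and 9 at 0.98 and -0.18, and wild-type 5 and 14 at 1.13 and 1.35. For 11 members with a second probe above background, that probe was also lowest on wild-type 11 in 8. The genotype difference had the same sign on both probes for 7 of the 11. Of the arrays that shared slide 2 with wild-type 11, c-Jun-deleted 9 was lowest for 4 members (Ebp, Srebf1, Insig2 and Soat1) and wild-type 14 for 1 (Scap).

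Some other measurements also set wild-type 11 apart, and others did not. It was the one array with low Xist, and large peritoneal macrophage markers had their lowest summed linear level there, 138 against 322 and 403 on the c-Jun-deleted arrays and 216 and 148 on wild-type 5 and 14. Of the 10 markers of that list, 6 were lowest on wild-type 11, and all 10 were well above background on every array. By mean difference all 10 were higher on the c-Jun-deleted arrays. Both of these arrays lay above the wild-type range for 7 of them, against 13.3% of all genes. The groups overlapped for Gata6, Timd4 and Garnl3. Without wild-type 11 the differences of Gata6, Timd4 and Garnl3 were 0.23, -0.017 and 0.051, beside a median of 0.98 over the list, so its markers did not move together. T and NK cell markers summed to 49.3 on wild-type 11 and to 22.3 and 17.1 on wild-type 5 and 14. On c-Jun-deleted 1 and 9 they summed to 56.3 and 74.6. These 2 sums include Cd2 at log2 levels of 5.06 and 5.44, against 3.31 on wild-type 11. Relative to the wild-type mean, the median log2 level of the 11 markers was highest on wild-type 11, at 1.25. It was 0.42 and 0.82 on c-Jun-deleted 1 and 9 and -0.55 and -0.59 on wild-type 5 and 14. Mesothelial markers summed to 9.8 on wild-type 11, against 2.3 and 3.7 on the c-Jun-deleted arrays and 4.2 and 6.9 on wild-type 5 and 14. Cycling-cell markers summed to 20.6 on wild-type 11, against 11.2 and 7.0 on the c-Jun-deleted arrays and 11.1 and 21.4 on wild-type 5 and 14. Mki67, which these sums include, was at a log2 level of 4.115 on wild-type 14 and 3.28 on wild-type 11. The median log2 level of the 8 markers, relative to the wild-type mean, was 0.93 on wild-type 11 and -0.36 on wild-type 14. It was -0.63 on wild-type 5 and -0.35 and -0.76 on c-Jun-deleted 1 and 9. Low Xist with high Ddx3y, the male pattern, was found on wild-type 11 alone and on neither c-Jun-deleted array. Sex therefore cannot be told apart from other traits of that mouse. The part of sex and of the cell makeup in the low synthesis genes was not tested. The share of probes well above background was 59.5% on wild-type 11 and 53.0% to 60.6% on the other arrays.

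Genes around the pathway were read from 4 further lists, none of whose members passed limma. Over all genes the median difference was -0.092, and 12.1% had an unadjusted limma p below 0.05. For SREBP processing and degradation, 13 genes were tested, 3 higher and 10 lower with a median of -0.11, and 1 had an unadjusted p below 0.05. This was Fbxw7, a ubiquitin ligase subunit that marks nuclear SREBP for degradation, at 1.42 and 1.39 on c-Jun-deleted 1 and 9 and at 1.13, 1.01 and 0.91 on wild-type 5, 11 and 14. The difference of Fbxw7 was 0.39 (SE 0.14), with a limma adjusted p of 0.399. For genes that use isoprenoids, such as the prenyl transferases, 10 were tested, 4 higher and 6 lower with a median of -0.13, and 0 had an unadjusted p below 0.05. On wild-type 11 these lists had medians of -0.067 and -0.054 relative to the wild-type mean, where the squalene stage had -0.78.

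The SREBP-1 and fatty acid branch had 10 tested genes, 6 higher and 4 lower, with a median of 0.15, and 2 of them lay above the wild-type range, where 13.3% of all genes did. Scd1, a stearoyl-CoA desaturase and a known target of SREBP-1 and LXR, was at 2.58 and 2.81 on c-Jun-deleted 1 and 9, against 1.02, 0.77 and 0.38 on wild-type 5, 11 and 14. The groups were well apart: the difference was 1.97 (SE 0.24), a 3.93-fold higher signal, and it was 2.00 without wild-type 11, 1.56 within slide 1 and 2.24 within slide 2. The limma adjusted p of Scd1 was 0.213, so it did not pass. Acaca, the acetyl-CoA carboxylase, was at 4.00 and 4.36 on the c-Jun-deleted arrays and at 3.89, 3.38 and 3.77 on the wild-type arrays, a difference of 0.50 (SE 0.23). Wild-type 11 was lowest for 6 of the 10 genes of this branch.

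**Figure D4:**
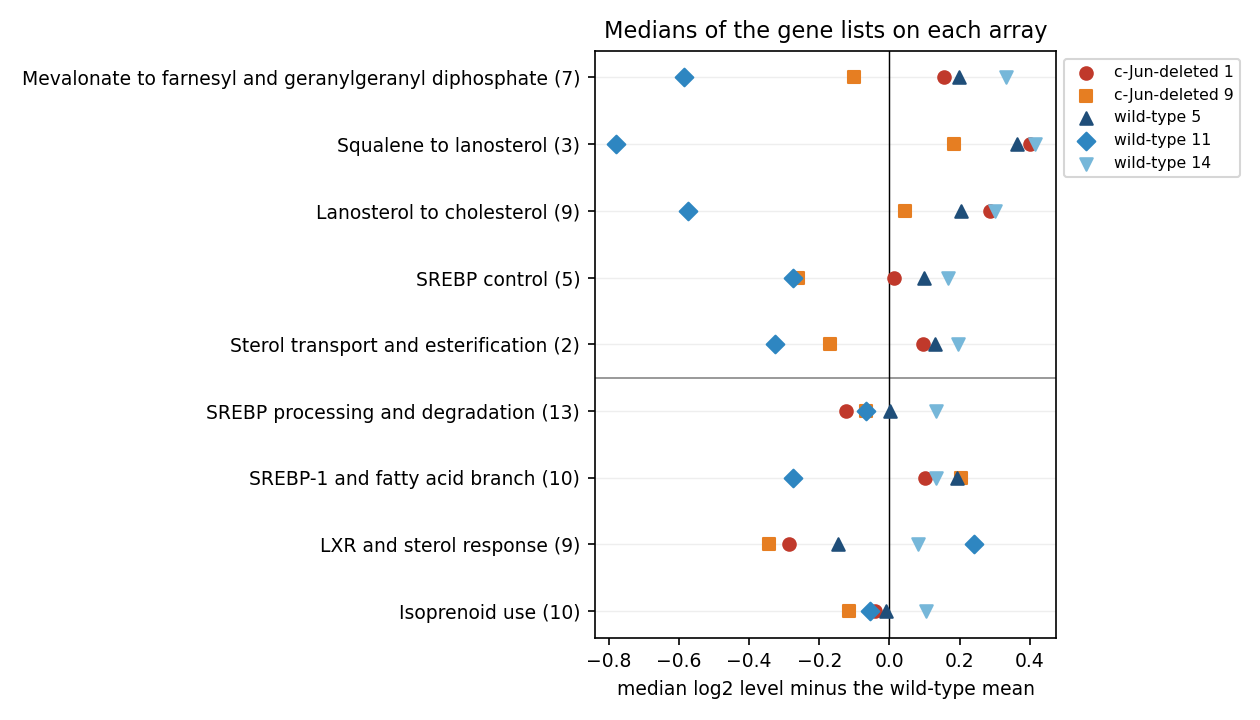
Median log2 level of each gene list on each array, minus the mean of the wild-type arrays, with the number of genes tested in brackets; red and orange points are c-Jun-deleted 1 and 9, blue points are wild-type 5, 11 and 14. The synthesis lists lie between -0.78 and -0.57 on wild-type 11, the SREBP processing and isoprenoid lists lie close to 0 on every array, and the LXR list is at -0.29 and -0.34 on the c-Jun-deleted arrays and at 0.24 on wild-type 11.

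Genes of LXR and the sterol response, which govern the export side, had 9 tested members, 2 higher and 7 lower, with a median of -0.23. Of these, 3 had an unadjusted limma p below 0.05, against 12.1% of all genes, whose median difference was -0.092. Nr1h3, which encodes LXR alpha, was at 2.54 and 2.03 on c-Jun-deleted 1 and 9, against 2.93, 3.50 and 3.33 on wild-type 5, 11 and 14. Its groups did not overlap, with a difference of -0.97 (SE 0.26) and a limma adjusted p of 0.299. Mylip, an LXR target that directs lipoprotein receptors to degradation, was at 2.38 and 2.84 on the c-Jun-deleted arrays and at 1.44, 2.03 and 1.29 on the wild-type arrays, a difference of 1.02 (SE 0.30) with a limma adjusted p of 0.324. Ch25h, whose oxysterol product is known to block SREBP processing, was at -4.33 and -5.59 on the c-Jun-deleted arrays and at -2.70, -1.81 and -2.04 on the wild-type arrays. Ch25h was well above background on 1 of 2 c-Jun-deleted arrays, so the size of its difference of -2.78 (SE 0.48, limma adjusted p 0.224) is uncertain. Abca1, the main cholesterol exporter of macrophages, was at 3.78 and 3.40 on the c-Jun-deleted arrays and at 4.73, 3.64 and 4.96 on the wild-type arrays, which overlap. The Abca1 difference was -0.85 (SE 0.45), with a limma adjusted p of 0.489.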

How the data were processed

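Peritoneal macrophage RNA of 2 c-Jun-deleted and 3 wild-type mice was hybridised to 1-colour Agilent arrays. The authors' scanner files hold background-subtracted spot intensity from Feature Extraction 11.5.1.1, per the file headers, with no scaling between arrays, and flags for spots well above background or outlying, an other kind of value. The deposited series table holds log2 values, 1 per group. Here log2 intensity was taken relative to each array's 75th percentile (437 to 596). Control and flagged spots were left out, spots of a probe were averaged, and a probe had to be well above background on 2 or more of the 5 arrays. Probes were named through RefSeq accessions of assembly GRCm38.p6 and a gene was its brightest probe. The genotypes were set against each other in limma 3.58.1 under R 4.3.3 (lmFit, eBayes, 2-sided), with p-values adjusted by Benjamini-Hochberg over 27929 genes, after a check on simulated data. Intervals are at 95%. The samples were treated as separate animals because the sources number the mice; if the RNA was not separate, p-values reflect technical spread alone. With 2 and 3 arrays the smallest exact permutation p is 0.1, so no such test was run.

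All 27 members were named, by role, with full statistics for the smallest p of each step (up to 3) and for groups that did not overlap; related lists name up to 4 genes. Members, lists and rules were chosen with earlier results of these data known. Alternatives were other scalings, filters, probe choices, the slide as a block or within slide, array weights and leaving out each array. A further wild-type array named in the series table was not used here. The number of arrays limits precision.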

Additional observations from a re-analysis of the deposited data

How the results depend on the processing

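Of the 26 members 0 passed limma under each alternative that gave a test, while over all genes 0.637% passed with median centring and 0.00358% with array weights. The 4 members with groups that did not overlap kept their direction under all 17 alternatives. Most of these could not have reversed it. With groups that do not overlap, leaving out or weighting arrays and using the slide keep the direction. The changes of filter left the differences of these members as they were. The number of such members was 4 (with the share of all genes in brackets, 33.5%), and it was 9 with normexp and quantile normalization (34.3%), 2 with median centring (29.6%), 7 within slide 2 (70.4%) and between 5 and 12 with 1 array left out (44.0% to 60.9%), where fewer arrays make it easier to reach. The median difference was 0.16; it was -0.064 with array weights and ranged from -0.17 (without wild-type 11) to 0.32 (without c-Jun-deleted 9) with 1 array left out. The cause of these shifts was not tested. Of 26 members, 13 changed sign without wild-type 11, 9 within slide 1, 7 with array weights, 6 without c-Jun-deleted 1 and 0 to 2 under each of the others. Wild-type 11 was lowest for 19 to 24 members under the 6 settings tried for it, and its median gap of -0.63 was -0.86 with median centring, which also puts all genes at -0.24. These settings were chosen after seeing the data. The normexp setting used the median spot signal, as the files used here give no mean. The authors' table holds 1 member probe and gave no other value. No paired analysis was possible because the groups share no replicate number.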
